A study of Mus musculus with 18 samples.

Results

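The genes studied here were interferon beta and the receptors of the type I and type II interferons in mouse bone marrow derived macrophages (BMDMs). The set had 5 members, chosen by gene name from the 20615 genes of the deposited table: Ifnb1, which encodes interferon beta, Ifnar1 and Ifnar2, which encode both chains of the type I interferon receptor, and Ifngr1 and Ifngr2, which encode the chains of the interferon gamma receptor. All 5 members had a row. RNA sequencing (RNA-seq) was performed on 18 samples in 6 groups of 3, and the question was how macrophages of a Sjögren's syndrome model respond to apoptotic cells (ACs) compared with those of the background strain. BMDMs came from mice of 7 to 12 weeks of age and were grown in medium with L929 cell supernatant, a source of M-CSF. One strain was C57BL/6 (B6). The other was C57BL/6.NOD-Aec1Aec2 (SjSS), a B6 congenic line that carries the Aec1 (Idd3) and Aec2 (Idd5) intervals of the NOD mouse and is used as a model of Sjögren's syndrome without diabetes. In each strain BMDMs were left untreated (control), given apoptotic thymocytes at 5 per BMDM for 2 h and kept for a further 3 h after washing (AC), or given 1 µM CpG, a DNA ligand of TLR9, for 6 h (CpG). The control, AC and CpG groups therefore differed in handling as well as in stimulus. The thymocytes had been killed with dexamethasone. Thymi were taken from mice of both strains, and the paper calls the thymocytes syngeneic for its cytokine assay only. Which strain's thymocytes the BMDMs received for RNA-seq is not stated. The part of dexamethasone or of the thymocyte donor in the AC results was not tested. The study's methods give a longer time after washing than the 3 h of its results text and of the labels, which were followed here. The legend of the study's RNA-seq figure does not limit the wash and the further 3 h to ACs. RNA may thus have been taken later than 6 h after CpG was added.

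Interferon beta is made by many cell types after nucleic acid or bacterial products are sensed. It is secreted and binds IFNAR1 and IFNAR2 on the same and neighboring cells, which activates the kinases JAK1 and TYK2, then STAT2, and with IRF9 switches on the interferon stimulated genes. Interferon gamma, a product of T cells and natural killer cells, binds IFNGR1 and is signaled through IFNGR2 by JAK1 and JAK2, and is the classical activator of macrophages.

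Library totals ranged from 30688336 to 57139662 counts, and the smallest was that of SjSS control replicate 2. All 6 macrophage markers examined (Adgre1, Itgam, Csf1r, Cd68, Mertk and Lyz2) had counts in every group, with a summed level of 14718 to 22692 CPM (counts scaled to a library total of 1000000) per sample. Markers of other cells were low, and 4 of the 5 lists (fibroblast, T-lineage, B cell and neutrophil) had summed levels that did not overlap between strains in any of the 3 conditions. The summed level of 4 fibroblast markers was 35.2 to 122 CPM in B6 samples and 139.7 to 219 CPM in SjSS samples. The summed level of 10 T-lineage markers, which thymocytes would carry, was 7.91 to 9.80 CPM in B6 control and 4.21 to 4.70 CPM in B6 AC, but 10.1 to 11.5 CPM in SjSS control and 13.2 to 18.04 CPM in SjSS AC. Most of that sum was Cd4, with means of 8.60 and 3.57 CPM in B6 control and AC and 10.3 and 14.0 CPM in SjSS control and AC. Other T-lineage markers went the other way after ACs, with 24 counts of Rag1 over the B6 AC group against 3 over the SjSS AC group, 10 against 0 of Themis and 26 against 10 of Cd8a. The 5 B cell markers summed to 9.41 to 17.5 CPM in B6 samples and 11.8 to 26.8 CPM in SjSS samples, higher in SjSS within each condition. The 3 neutrophil markers with a row summed to 3.12 to 12.7 CPM in B6 samples and 2.24 to 5.96 CPM in SjSS samples, lower in SjSS within each condition. The 6 dendritic cell markers summed to 1.22 to 4.20 CPM per sample. In bulk RNA, a change in the number of cells of a type and a change in RNA per cell cannot be told apart.

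Ifnb1 is a gene of 1 exon, 750 bp in GENCODE M21, at chr4:88522025-88522775 on the minus strand (mm10). The sequence upstream of its start is shown because the virus-response enhancer of this gene is a textbook example of a switched promoter. The same stretches of Ifngr1 and Ifngr2 follow, the pair of members whose mRNA moved in opposite directions with CpG. Each run holds bases 160 to 61 before the RefSeq transcription start (GRCm38.p6), 5′ to 3′ on the strand of the gene. Capitals mark the letters AANNGAAA (a core shared by sites of interferon regulatory factors, IRF), the consensus κB motif of NF-κB and TATAAA (the core of the box bound by TFIID), searched on both strands, and no matches overlapped.
Ifnb1, chr4:88522855-88522954, minus strand: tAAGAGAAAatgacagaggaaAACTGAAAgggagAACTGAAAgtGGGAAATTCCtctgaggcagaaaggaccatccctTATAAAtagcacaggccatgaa
Ifngr1, chr10:19591789-19591888, plus strand: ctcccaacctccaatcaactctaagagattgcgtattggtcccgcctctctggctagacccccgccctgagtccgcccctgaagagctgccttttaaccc
Ifngr2, chr16:91546899-91546998, plus strand: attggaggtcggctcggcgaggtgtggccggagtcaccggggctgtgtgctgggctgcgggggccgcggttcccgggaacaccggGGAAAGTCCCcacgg

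The Ifnb1 stretch held 3 matches to the IRF letters, 1 κB match and 1 TATA match within 100 bases. Its full 250 bases held 1 further TATAAA, at 210 to 205 before the start, and no further IRF or κB match. Over the 250 bases upstream of 32817 RefSeq starts, 21.3% held the IRF letters, 4.20% held them at least 2 times, 7.25% held the κB motif and 12.4% held TATAAA. Ifngr2 had 1 κB match, on the opposite strand at 75 to 66 before its start, and the 4 receptor genes had no match to the IRF letters or TATAAA in these 250 bases. The bases G and C made up 39.6% of the Ifnb1 window, 54.0% to 74.0% of the receptor windows and 52.4% of the median RefSeq window. These matches describe letters only and are not evidence of binding. Positions are counted from the RefSeq start, and the nearer Ifnb1 TATAAA lay 82 to 77 bases before it. That annotated start lies downstream of where this TATA match would place it, and where transcription begins was not tested.

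Ifnb1 had few counts in 5 of the 6 groups and rose in AC treated SjSS BMDMs. In B6 control BMDMs the 3 samples held 0, 0 and 5 counts of Ifnb1. After ACs the B6 samples held 5, 16 and 5 counts. In the SjSS control samples there were 7, 6 and 2 counts, and after ACs there were 219, 259 and 216. The AC treated SjSS samples thus lay far above all others with no overlap. In counts, AC treated B6 samples touched the highest B6 control and 2 of the 3 were below the highest SjSS control. In CPM, which takes depth into account, the lowest AC treated B6 sample (0.099) lay just above the highest B6 control (0.089).

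**Figure D1:**
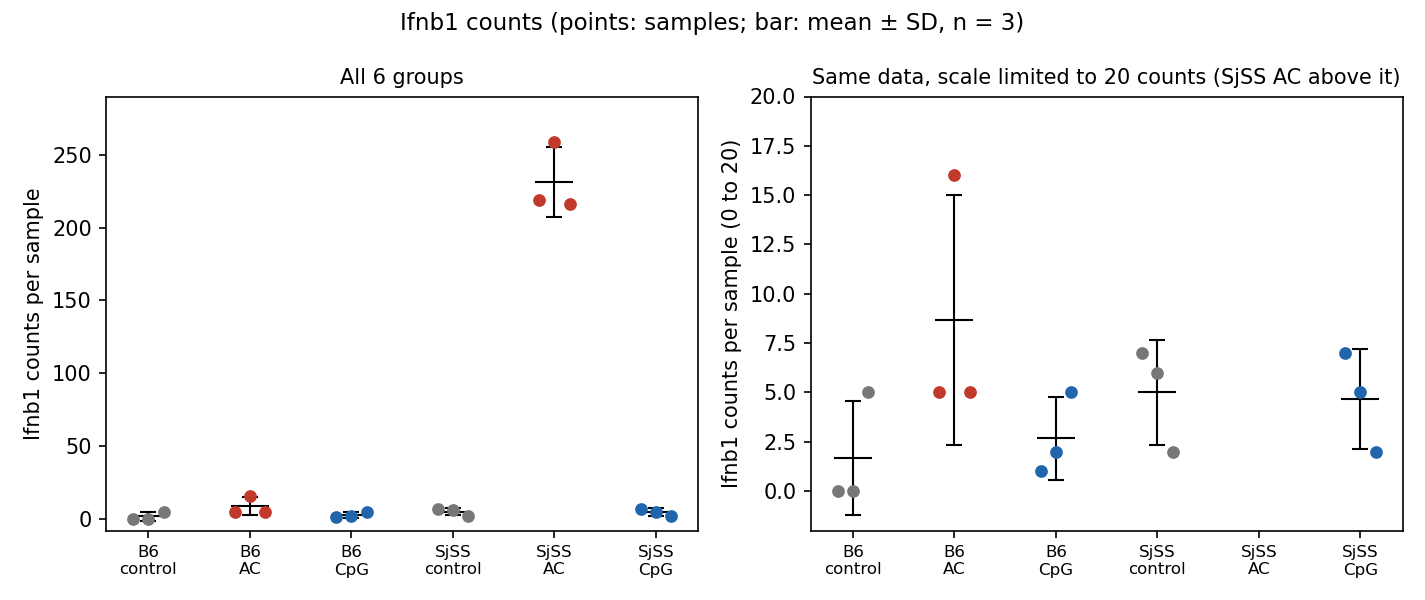
Ifnb1 counts in each of the 18 samples by group, on the full scale (left) and limited to 20 counts (right), where AC treated SjSS samples lie above the axis. Points are samples and bars show the mean ± SD of 3 samples. The 3 AC treated SjSS samples sit between 216 and 259 counts and no other sample exceeds 16.

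In SjSS BMDMs, summed Ifnb1 counts went from 15 to 694 with ACs, a depth-scaled ratio of 50.7 (exact conditional 95% interval 30.5 to 91.0, which covers counting error only). The log2 fold change was 5.61 ± 0.52 (SE, n = 3 per group, edgeR quasi-likelihood test, adjusted p = 2.33e-08). In B6 BMDMs the sums were 5 and 26 counts, a ratio of 5.85 (2.21 to 19.5), with a log2 fold change of 2.44 ± 0.82 (edgeR adjusted p = 0.0250). That call rested on few counts. It was lost when only both of these groups were fitted (edgeR adjusted p = 0.0877), without B6 AC replicate 2 (edgeR adjusted p = 0.182), without B6 control replicate 1 (edgeR adjusted p = 0.103) and without B6 control replicate 2 (edgeR adjusted p = 0.0803). Without B6 control replicate 3 the remaining controls had 0 counts and the ratio was at least 6.46, with the 3 counts that a sum of 0 allows as the control.

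Even at its highest, Ifnb1 was modest in CPM, a measure that does not take its exon length of 750 bp into account. Its level of 5.32 ± 0.42 CPM (SD, n = 3) in AC treated SjSS BMDMs was above 38.2% of the 15789 genes tested, and in B6 control, at 0.030 ± 0.051 CPM, it was above 0.697% of them. Ifnb1 passed the filter on low counts through the AC treated SjSS samples. With no filter, its log2 fold change with ACs in SjSS was 5.60 (edgeR adjusted p = 5.35e-09) and its SjSS to B6 difference after ACs was 4.90 (edgeR adjusted p = 2.43e-08). In the order of levels, AC treated B6 (0.171 ± 0.114 CPM), SjSS control (0.114 ± 0.072 CPM), CpG treated SjSS (0.109 ± 0.057 CPM), CpG treated B6 (0.061 ± 0.045 CPM) and B6 control followed, and each of these groups overlapped its neighbor.

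Between strains, AC treated SjSS BMDMs held 30.2 times the Ifnb1 of AC treated B6 BMDMs (exact 95% interval 20.4 to 46.6), a log2 difference of 4.91 ± 0.48 (n = 3 per group, edgeR adjusted p = 9.69e-08). Without B6 AC replicate 2, which holds 16 of the 26 B6 counts, the ratio was 50.5. In untreated BMDMs the SjSS to B6 ratio was 3.49 (1.21 to 12.3) and the log2 difference of 1.74 ± 0.91 was not called (n = 3 per group, edgeR adjusted p = 0.196). That ratio was 2.18 without B6 control replicate 1, and without B6 control replicate 3 it was at least 3.85 and the difference was called (edgeR adjusted p = 0.0201) against controls of 0 counts. The test of the difference between strains in the AC response gave a log2 value of 3.17 ± 1.3 (n = 3 per group, edgeR adjusted p = 0.0640), which missed the threshold. DESeq2 gave an adjusted p of 0.00283 for it, and edgeR with the replicate number as a block within strain gave an adjusted p of 0.0496. It was called without B6 control replicate 1 (3.79, edgeR adjusted p = 0.0268), without B6 control replicate 2 (3.63, edgeR adjusted p = 0.0360) and without B6 AC replicate 2 (3.88, edgeR adjusted p = 0.0294). Without B6 control replicate 3, the only B6 control with Ifnb1 counts, the fitted value turned to -0.44 (edgeR adjusted p = 0.595), and a fit against a group of 0 counts depends on the prior count. An exact two-sided permutation test of CPM gave p = 0.1 for the AC responses and for the strain difference after ACs, the smallest that 3 against 3 samples allow, and 0.233 after adjustment over 7 comparisons. The part of the marker levels of other cells in these differences was not tested. Of the 10 T-lineage markers, all 10 were detected in the B6 AC group and 9, without Themis, in the SjSS AC group, and 2 passed the filter on low counts.

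CpG given for 6 h did not bring a detectable change of Ifnb1 at the time when RNA was taken. The B6 CpG samples held 1, 2 and 5 counts and the SjSS CpG samples held 7, 5 and 2, within the range of their controls in counts. In CPM, B6 CpG replicate 3 (0.109) lay above the highest B6 control (0.089). The ratio to control was 2.00 (0.578 to 7.78) in B6 and 1.04 (0.465 to 2.31) in SjSS. The log2 fold changes of 0.94 ± 1.03 (n = 3 per group, edgeR adjusted p = 0.455) and 0.03 ± 0.74 (edgeR adjusted p = 0.977) were not called. With so few counts, a change of a few fold in B6 lies inside the interval. Without B6 control replicate 3 the B6 response was called (edgeR adjusted p = 0.0290) against controls of 0 counts, with a ratio of at least 2.21.

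Against the background, 2 of the 5 members rose and 1 fell with ACs in SjSS BMDMs, where 58.0% of all genes tested were called (adjusted p under 0.05, either direction). In B6, 1 rose and 3 fell, where 38.3% of all genes were called. With CpG 1 rose and 1 fell in B6, where 57.9% of all genes were called, and 2 rose and 2 fell in SjSS, where 54.2% were. Between strains, 2 members were lower in SjSS control (19.6% of all genes called), 2 were higher in SjSS after ACs (49.4% called) and 1 was lower after CpG (19.7% called). The interaction of strain with AC was called for 1 member (37.9% of all genes) by edgeR. The interaction of strain with CpG was called for 0 of 5 by edgeR and by DESeq2, with 0 of 5 at an unadjusted p under 0.05 in edgeR (5.85% of all genes called). Past a log2 difference of 1.3, the fold threshold of the study's methods, Ifnb1 alone was called, in both AC responses and in the strain difference after ACs, comparisons in which 4.47%, 12.9% and 8.93% of all genes were.

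**Figure D2:**
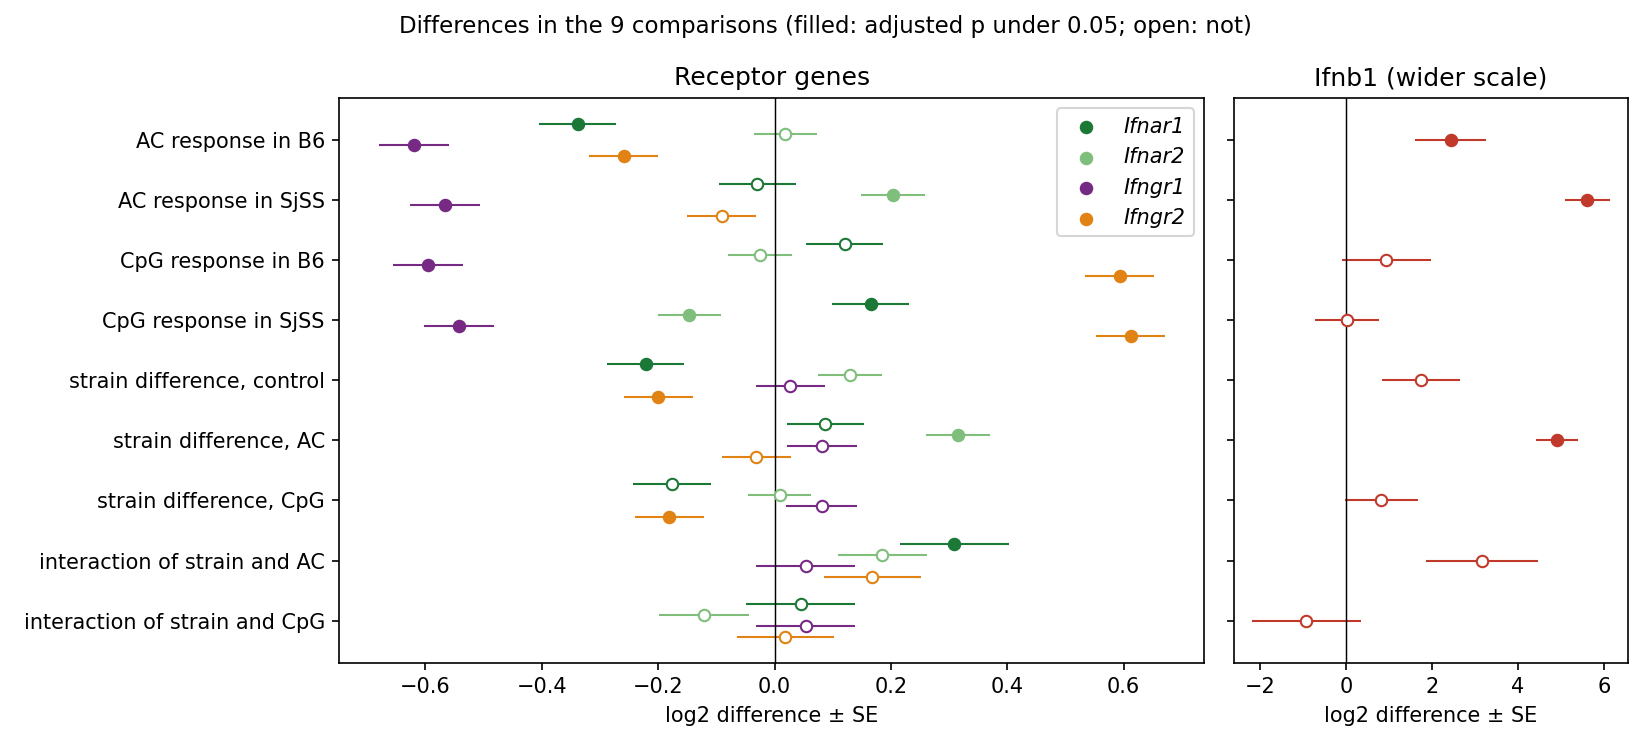
Log2 differences of the 5 members in the 9 comparisons, with SE as horizontal bars, receptor genes on the left and Ifnb1 on a wider scale on the right. Filled points have an adjusted p under 0.05 (edgeR). Receptor differences stay within 0.7 on the log2 scale, with Ifngr1 to the left of 0 in all 4 responses and Ifngr2 to the right of 0 in both CpG responses.

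The receptor genes were expressed throughout, at levels between 134.5 and 300.4 CPM in all samples. Compared per length of merged exons, control B6 BMDMs had 82.7 ± 4.50 CPM per kb of Ifngr1, 46.1 ± 1.41 of Ifnar2, 45.1 ± 0.635 of Ifngr2 and 45.0 ± 1.85 of Ifnar1 (SD, n = 3). Ifngr1 therefore had the highest level of the 4 per length, and the other 3 differed by less than their spread. On the length of the longest transcript instead, Ifngr1 stayed highest (111 CPM per kb), and Ifnar1 moved above Ifnar2 and Ifngr2 (68.4 against 50.3 and 45.9 CPM per kb).

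**Figure D3:**
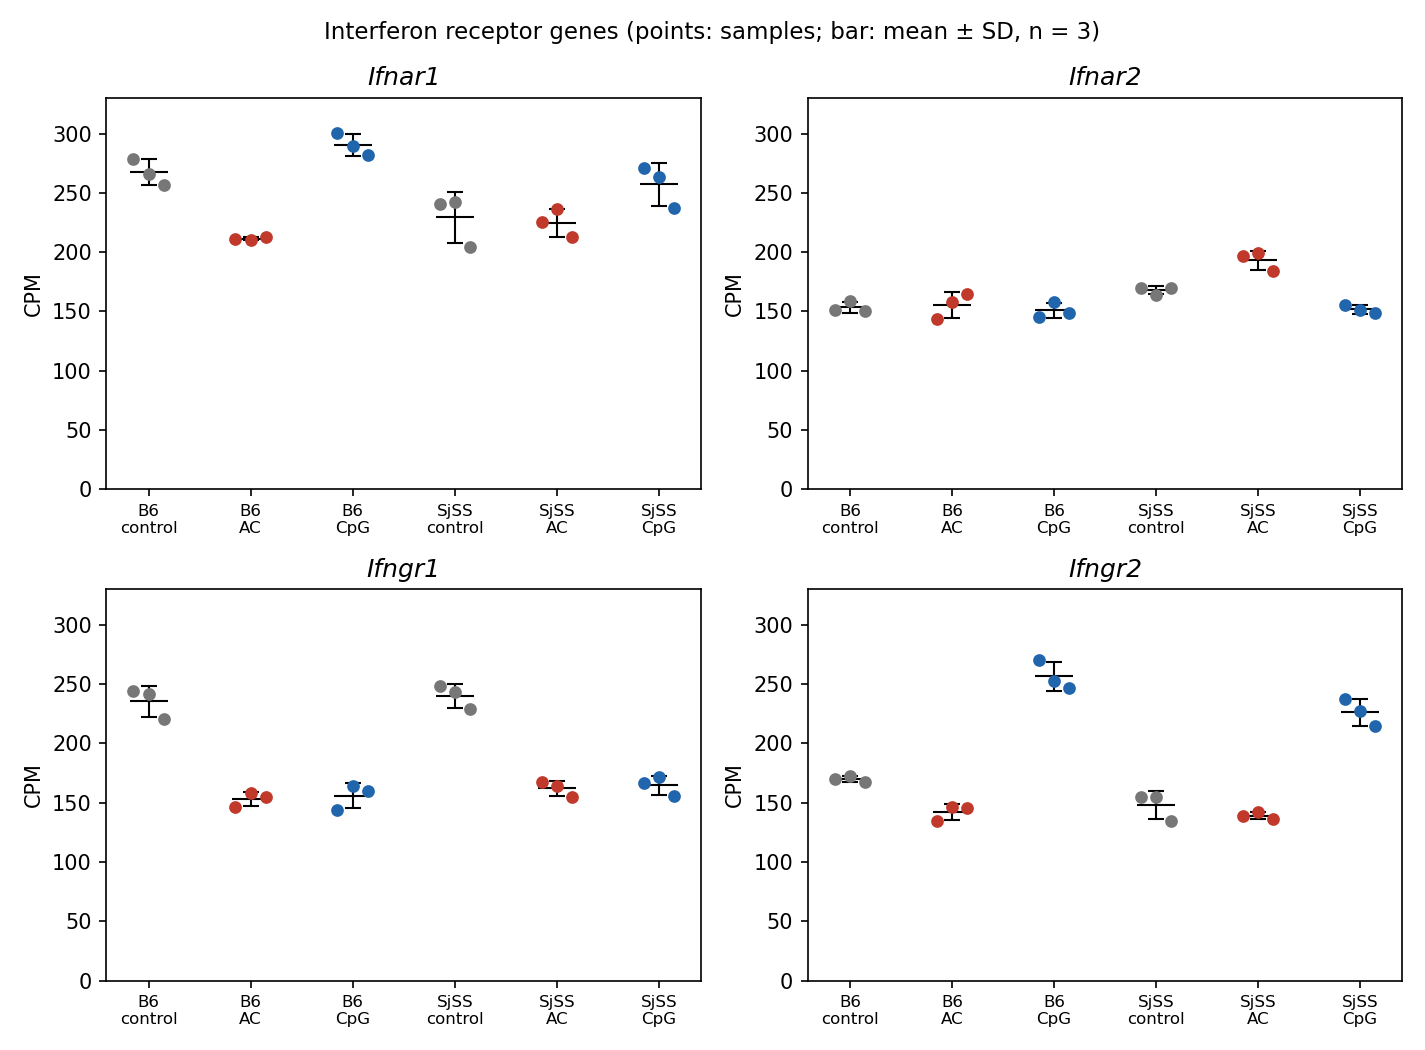
Levels of Ifnar1, Ifnar2, Ifngr1 and Ifngr2 in CPM, from 0, in each of the 18 samples by group. Points are samples and bars show the mean ± SD of 3 samples. Ifngr1 is lower in all AC and CpG samples than in all controls, and Ifngr2 is highest in the CpG samples of both strains.

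Ifngr1, the chain that binds interferon gamma (chr10:19591949-19610230, plus strand), fell with both stimuli in both strains. Its levels in B6 control samples were 244, 242 and 221 CPM, and in SjSS control samples 248, 243 and 229 CPM. After ACs they were 147, 158 and 154 CPM in B6 and 167, 164 and 155 CPM in SjSS. After CpG they were 144, 164 and 160 CPM in B6 and 167, 172 and 156 CPM in SjSS. No treated sample reached the lowest control, and the treated groups overlapped one another. With ACs the log2 fold change was -0.62 ± 0.06 in B6 (n = 3 per group, edgeR adjusted p = 1.63e-07) and -0.57 ± 0.06 in SjSS (edgeR adjusted p = 1.47e-07). With CpG it was -0.60 ± 0.06 in B6 (edgeR adjusted p = 7.20e-08) and -0.54 ± 0.06 in SjSS (edgeR adjusted p = 3.28e-07). In the 4 responses Ifngr1 fell by 31.3%, fell by 32.5%, fell by 33.8% and fell by 34.9%, from the least to the most. The interaction of strain and AC for Ifngr1 was 0.05 ± 0.09 (edgeR adjusted p = 0.669). The responses of a strain to AC and to CpG share its control samples.

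Ifngr2, the signaling chain of the same receptor (chr16:91547072-91565170, plus strand), went the other way with CpG. Control levels were 169.8, 173 and 168 CPM in B6 and 155, 155 and 135 CPM in SjSS. With CpG they were 270.1, 253 and 247 CPM in B6 and 237, 228 and 214 CPM in SjSS, all above every control. The log2 rise was 0.59 ± 0.06 in B6 (n = 3 per group, edgeR adjusted p = 5.71e-08) and 0.61 ± 0.06 in SjSS (edgeR adjusted p = 5.09e-08). With ACs the samples held 134.5, 146 and 146 CPM in B6, below all B6 controls, and the change of -0.26 ± 0.06 was called (n = 3 per group, edgeR adjusted p = 0.00176). In SjSS the AC samples held 139, 142 and 137 CPM, within the range of their controls, with a change of -0.09 ± 0.06 (n = 3 per group, edgeR adjusted p = 0.204). The difference between these AC responses was 0.17 ± 0.08 and was not called (edgeR adjusted p = 0.127). Without SjSS control replicate 3, the lowest of its group, the SjSS response was called at -0.16 (edgeR adjusted p = 0.0267).

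The balance of the interferon gamma receptor mRNAs therefore shifted. Per length, B6 control samples held 1.90, 1.85 and 1.74 Ifngr1 for each Ifngr2, AC samples 1.44, 1.44 and 1.40, and CpG samples 0.706, 0.856 and 0.858. In SjSS the ratios were 2.12, 2.08 and 2.25 in controls, 1.59, 1.53 and 1.502 after ACs, and 0.931, 0.997 and 0.963 after CpG. These groups did not overlap in either strain. Every CpG sample lay below 1 on merged exons, but where the ratio stands against 1 depends on the length used. Merged exons are 2847 bp for Ifngr1 and 3767 bp for Ifngr2. The longest transcripts are 2112 bp and 3708 bp, and their use would raise every ratio by the same factor. The ratio is within a sample, so the scaling of libraries does not enter it. Each of these differences gave p = 0.1 in an exact permutation test, the smallest possible, and 0.108 after adjustment over 14 comparisons of both pairs.

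Ifnar1, a chain of the type I interferon receptor that is constitutively bound by TYK2 (chr16:91485238-91507442, plus strand), fell with ACs in B6 BMDMs, and its AC response differed between strains. Control levels in B6 were 279, 266 and 257 CPM, and AC levels were 211, 210.4 and 213 CPM, with no overlap. In SjSS the controls held 241, 243 and 204 CPM and the AC samples 225, 236 and 212 CPM, which overlapped. The log2 fold change was -0.34 ± 0.07 in B6 (n = 3 per group, edgeR adjusted p = 4.59e-04) and -0.03 ± 0.07 in SjSS (edgeR adjusted p = 0.729), and the interaction of 0.31 ± 0.09 was called (edgeR adjusted p = 0.0141). The interaction was called in every fit that left out 1 sample (edgeR adjusted p = 0.00994 to 0.0386). Untreated SjSS BMDMs also started lower, with a log2 difference of -0.22 ± 0.07 (n = 3 per group, edgeR adjusted p = 0.0246), while after ACs the strains differed by 0.09 ± 0.07, which was not called (edgeR adjusted p = 0.291). The control difference was lost when only both control groups were fitted (edgeR adjusted p = 0.0853), without SjSS control replicate 3 (edgeR adjusted p = 0.135), and without B6 control replicate 1 (edgeR adjusted p = 0.0965) or 2 (edgeR adjusted p = 0.0625).

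With CpG, Ifnar1 stood at 300.4, 290 and 282 CPM in B6 and at 271, 263 and 237 CPM in SjSS. The B6 samples lay above all B6 controls, but the change of 0.12 ± 0.07 was not called (n = 3 per group, edgeR adjusted p = 0.129). Same-numbered B6 control and CpG samples deviated together in all 3 pairs (r = 0.137 to 0.264 across genes), and with the replicate number as a block within strain the Ifnar1 change was called (edgeR adjusted p = 0.0331). The SjSS change of 0.17 ± 0.07 was called (n = 3 per group, edgeR adjusted p = 0.0422) although 1 SjSS CpG sample lay within the controls. That call was lost without SjSS control replicate 3 (edgeR adjusted p = 0.252), without SjSS CpG replicate 1 (edgeR adjusted p = 0.170) and without SjSS CpG replicate 2 (edgeR adjusted p = 0.110). It was lost as well with only both groups fitted (edgeR adjusted p = 0.142) and with no filter on low counts (edgeR adjusted p = 0.0680).

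Ifnar2, the chain that binds type I interferons with the higher affinity and the docking site of JAK1 and STAT2 (chr16:91372783-91405590, plus strand), rose with ACs in SjSS BMDMs. SjSS control samples held 169, 164 and 170.1 CPM, and AC samples held 197, 199 and 184 CPM, all above the controls. In B6 the control samples held 151, 159 and 149.9 CPM and the AC samples 143, 158 and 164 CPM, on both sides of the controls. The log2 fold change was 0.20 ± 0.05 in SjSS (n = 3 per group, edgeR adjusted p = 0.00342) and 0.02 ± 0.05 in B6 (edgeR adjusted p = 0.826), and their difference of 0.19 ± 0.08 was not called (edgeR adjusted p = 0.0667). DESeq2 called that difference (adjusted p = 0.0215), and so did edgeR with the replicate number as a block within strain (adjusted p = 0.0456). After ACs, Ifnar2 was 0.32 ± 0.05 higher in SjSS than in B6 on the log2 scale (n = 3 per group, edgeR adjusted p = 9.22e-05), without overlap of the samples.

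With CpG, Ifnar2 stood at 146, 158 and 149 CPM in B6 and at 156, 151 and 148 CPM in SjSS. The SjSS samples lay below all SjSS controls, with a log2 change of -0.15 ± 0.05 (n = 3 per group, edgeR adjusted p = 0.0300). The call was lost without SjSS control replicate 1 (edgeR adjusted p = 0.0707) or 3 (edgeR adjusted p = 0.0728) and without SjSS CpG replicate 2 (edgeR adjusted p = 0.0664) or 3 (edgeR adjusted p = 0.0911). In B6 the change was -0.02 ± 0.05 (n = 3 per group, edgeR adjusted p = 0.723). The SjSS to B6 differences of Ifnar2 in control and after CpG were 0.13 ± 0.05 (edgeR adjusted p = 0.103) and 0.01 ± 0.05 (edgeR adjusted p = 0.938).

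The ratio of Ifnar1 to Ifnar2 per length was 0.977 ± 0.048 (SD, n = 3) in B6 control, 0.765 ± 0.052 after ACs and 1.08 ± 0.067 after CpG. In SjSS it was 0.767 ± 0.082, 0.651 ± 0.012 and 0.950 ± 0.048. In both strains the AC samples lay below their controls without overlap, and in each of the 3 conditions the SjSS samples lay below the B6 samples. Each of these differences gave p = 0.1 in the exact permutation test, the smallest possible.

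For the other strain differences of the gamma receptor genes, Ifngr2 was lower in SjSS, with log2 differences of -0.20 ± 0.06 in control (n = 3 per group, edgeR adjusted p = 0.0233) and -0.18 ± 0.06 after CpG (edgeR adjusted p = 0.0368). The control call was lost without SjSS control replicate 3 (edgeR adjusted p = 0.127), B6 control replicate 1 (edgeR adjusted p = 0.0563) or B6 control replicate 2 (edgeR adjusted p = 0.0773). The CpG call was lost without B6 CpG replicate 1 (edgeR adjusted p = 0.150) or 2 (edgeR adjusted p = 0.0666) and without SjSS CpG replicate 2 (edgeR adjusted p = 0.0790) or 3 (edgeR adjusted p = 0.140). Ifngr1 differed between strains by 0.03 to 0.08 on the log2 scale in the 3 conditions, none of which was called (edgeR adjusted p = 0.281 to 0.801). None of the members lies on the chromosomes of the NOD intervals named Idd3 and Idd5, which are chromosomes 3 and 1.

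Ifnar2, Ifnar1 and Ifngr2 lie on the same strand of chromosome 16 in a span of 192 kb, together with Il10rb, which encodes a shared chain of the IL-10 and lambda interferon receptors. These neighbors moved apart. Il10rb, which starts 33.4 kb from the start of Ifnar2, fell with CpG by 0.50 in B6 (edgeR adjusted p = 7.13e-07) and by 0.44 in SjSS (edgeR adjusted p = 4.78e-06) on the log2 scale, while Ifngr2 rose. A gene model of GENCODE M21 on the same strand, Gm21970, overlaps both Ifnar2 and Il10rb and had no row of its own here, so reads in the shared exons could have been split differently. Among the 8 neighbors examined, 1 rose and 1 fell with ACs in B6, and 1 rose and 5 fell with ACs in SjSS. Of all genes tested, 38.3% and 58.0% were called in these AC responses. With CpG, 2 rose and 2 fell in B6 and 3 rose and 2 fell in SjSS, where 57.9% and 54.2% of all genes were called.

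**Figure D4:**
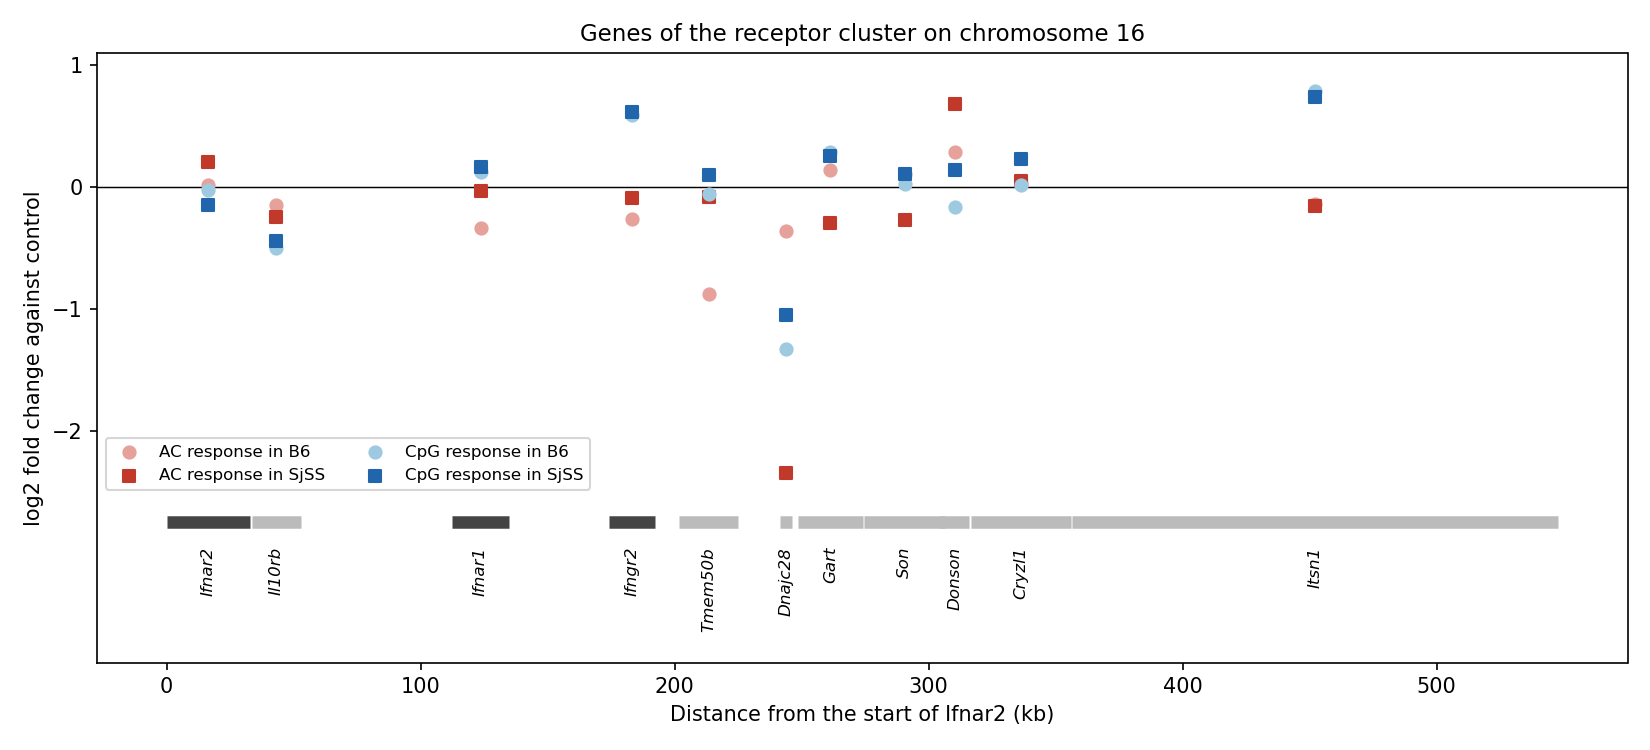
Log2 fold changes of the 3 receptor members and 8 neighboring genes on chromosome 16 in the 4 responses, plotted at the middle of each gene by its distance from the start of Ifnar2 in kb. Gene bodies are drawn to scale below, members dark. With CpG (blue), Ifngr2 and Itsn1 lie above 0 and Il10rb and Dnajc28 below 0 in both strains, and with ACs Tmem50b is lower in B6 and Dnajc28 in SjSS.

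Beyond Ifngr2, the neighbor Tmem50b fell by 0.88 with ACs in B6 (edgeR adjusted p = 1.74e-08) and changed by -0.08 in SjSS (edgeR adjusted p = 0.362), an interaction that was called (edgeR adjusted p = 4.38e-06). Dnajc28 fell by 2.34 with ACs in SjSS (edgeR adjusted p = 6.37e-10). Donson, a replication factor, rose by 0.68 there (edgeR adjusted p = 2.33e-06), and Gart, an enzyme of purine synthesis, fell by 0.30 (edgeR adjusted p = 1.33e-04). Cryzl1 changed by 0.05 (edgeR adjusted p = 0.530). Itsn1, an endocytic scaffold, rose with CpG by 0.79 in B6 (edgeR adjusted p = 1.85e-09) and by 0.74 in SjSS (edgeR adjusted p = 5.63e-09).

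Of the other interferon genes, 19 ligands were looked for and 1, Ifnz, had a row. It held 1 to 6 counts per group of 3 samples and was not tested, and the other 18 were not analysed here. Of 8 other genes of the class II cytokine receptor family, 7 had a row and 4 were tested, where 1 rose with ACs in B6 and 3 rose and 1 fell in SjSS. Of all genes tested, 38.3% in B6 and 58.0% in SjSS were called with ACs. Il10ra, the ligand-binding chain of the IL-10 receptor, went from 212 to 388 CPM with ACs in SjSS, a log2 rise of 0.87 ± 0.05, and from 162 to 152 CPM in B6, where the change was not called. F3, tissue factor, rose by 1.08 ± 0.36 in B6 and 2.89 ± 0.36 in SjSS, and Il20rb by 1.16 ± 0.18 in SjSS, both from levels under 2 CPM. Ifnlr1, the lambda interferon receptor, held 1 to 10 counts per group and was not tested.

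Of 5 genes for the machinery downstream of the receptors (Jak1, Jak2, Tyk2, Stat2 and Irf9), 3 rose with ACs in B6 and all 5 rose in SjSS, with 0 lower in either, where 38.3% and 58.0% of all genes tested were called in either direction, and the median log2 fold change was 0.83 in B6 and 1.39 in SjSS against 0.00 and -0.02 over all genes tested. Stat2, which works with Irf9, went from 60.5 to 122 CPM in B6 and from 96.5 to 663 CPM in SjSS, with an interaction of 1.77 ± 0.19 (n = 3 per group, edgeR adjusted p = 6.33e-07). Jak2, the kinase of Ifngr2, went from 66.2 to 118 CPM in B6 and from 62.6 to 353 CPM in SjSS, with an interaction of 1.67 ± 0.13 (n = 3 per group, edgeR adjusted p = 9.24e-09). Tyk2, the kinase of Ifnar1, rose by 0.75 ± 0.05 in SjSS and changed by 0.02 ± 0.05 in B6. Jak1 rose by 0.31 ± 0.05 in SjSS and changed by -0.05 ± 0.05 in B6. With CpG 4 of the 5 rose in each strain, where 57.9% of all genes were called in B6 and 54.2% in SjSS.

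**Figure D5:**
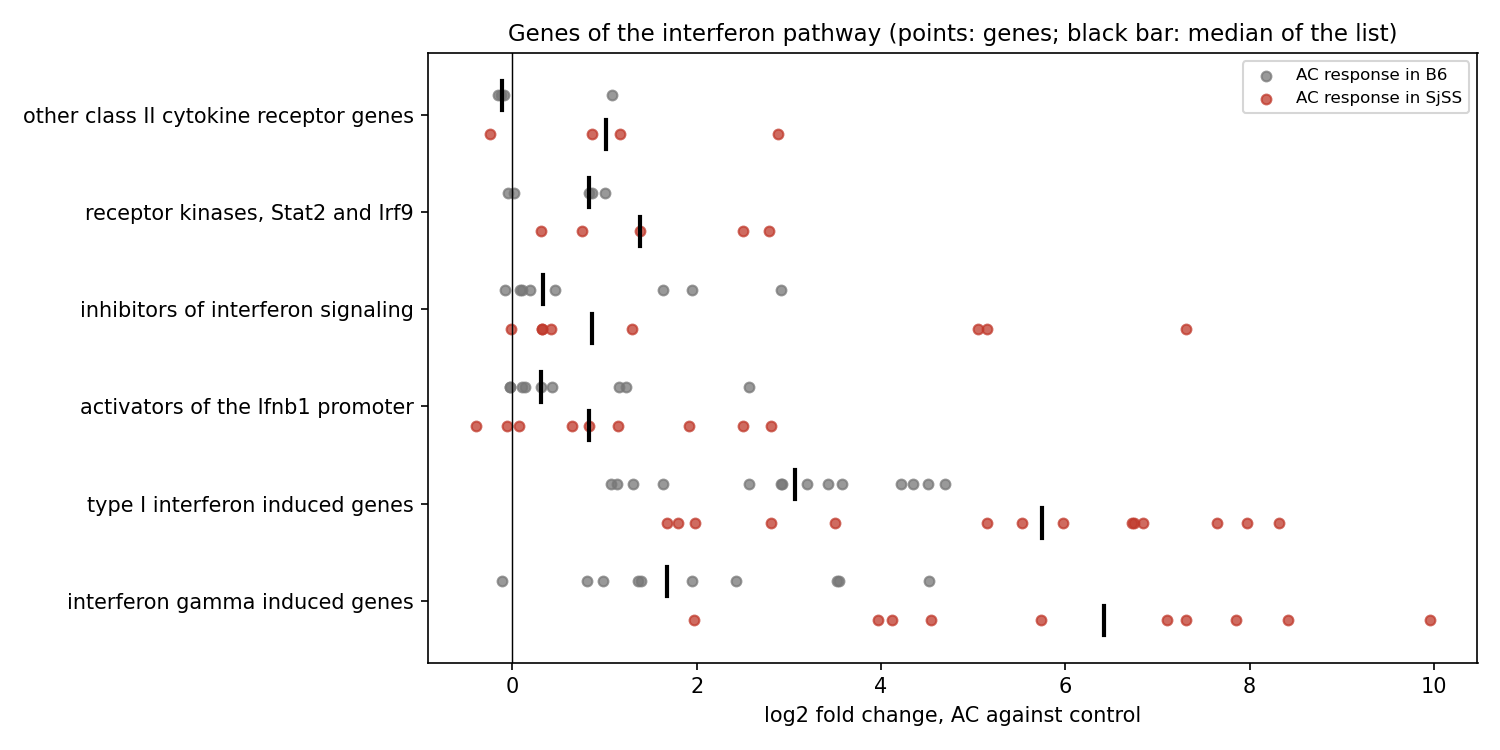
Log2 fold changes with ACs of the tested genes in 6 lists around interferon signaling, in B6 (grey) and SjSS (red) BMDMs. Each point is a gene and black bars are list medians. The medians lie farther right in SjSS than in B6 in all 6 lists, with the widest separation in the interferon gamma induced genes, at 1.67 in B6 and 6.42 in SjSS.

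Among 8 inhibitors of interferon signaling, 5 rose with ACs in B6 and 7 in SjSS, with 0 lower, and 7 rose with CpG in each strain. The shares of all genes called in either direction were 38.3% and 58.0% with ACs and 57.9% and 54.2% with CpG, in B6 and SjSS. Socs1, which blocks JAK kinases, went from 3.10 to 12.0 CPM in B6 and from 2.02 to 313 CPM in SjSS. Usp18, which displaces JAK1 from IFNAR2, went from 5.47 to 40.9 CPM in B6 and from 15.9 to 559.9 CPM in SjSS. Ptpn11, the phosphatase SHP2, rose by 0.32 ± 0.05 in SjSS and changed by 0.10 ± 0.05 in B6. Pias1, a SUMO ligase, changed by -0.01 ± 0.07 in SjSS and -0.08 ± 0.07 in B6, neither of which was called.

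Of 9 genes for activators that bind the Ifnb1 promoter or act upstream of it, 5 rose with ACs in B6 and 6 rose and 1 fell in SjSS. Of all genes tested, 38.3% and 58.0% were called in these responses, in either direction. Nfkb1, a subunit of NF-κB, rose by 1.16 ± 0.07 in B6 and 2.50 ± 0.07 in SjSS (interaction 1.34 ± 0.10, n = 3 per group, edgeR adjusted p = 3.23e-09). Irf7 rose by 2.57 ± 0.19 in B6 and 2.81 ± 0.19 in SjSS, and the difference of 0.24 ± 0.26 was not called (n = 3 per group, edgeR adjusted p = 0.505). Irf3 was the member that fell in SjSS, by 0.39, and changed by 0.14 ± 0.07 in B6. Atf2 changed by -0.06 ± 0.07 in SjSS. With CpG, 7 of the 9 rose and 1 fell in B6 and 7 rose in SjSS, where 57.9% and 54.2% of all genes were called.

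All 14 type I interferon induced genes examined rose in each of the 4 responses, with median log2 fold changes of 3.06 with ACs and 3.60 with CpG in B6 and of 5.75 and 2.04 in SjSS. The shares of all genes called in either direction were 38.3% with ACs and 57.9% with CpG in B6 and 58.0% and 54.2% in SjSS. The list holds Usp18 and Irf7 as well. All 14 rose with CpG while Ifnb1 stood at 1 to 7 counts per sample. All 14 were also higher in SjSS control than in B6 control (median 1.00), where 19.6% of all genes were called. Ifnb1 held 2 to 7 against 0 to 5 counts in these controls. The interaction of strain with AC was called higher for 12 of the 14 (37.9% of all genes called) and that with CpG lower for 11 (5.85% called). Rsad2, which encodes viperin, went from 26.4 to 599.9 CPM with ACs in B6 and from 53.7 to 13463 CPM in SjSS. Cmpk2, which lies beside it in the genome, went from 10.3 to 211 CPM and from 22.2 to 7031 CPM. Oas2 rose by 1.08 ± 0.17 in B6 and 1.79 ± 0.16 in SjSS, and Oas3 by 1.14 ± 0.20 and 1.68 ± 0.20, an interaction that was not called for Oas3 (n = 3 per group, edgeR adjusted p = 0.128).

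Of 10 genes known as interferon gamma induced, Socs1 among them, 9 rose with ACs in B6 and 10 in SjSS, and with CpG 9 rose and 1 fell in B6 and 8 rose in SjSS. The shares of all genes called in either direction were 38.3% and 58.0% with ACs and 57.9% and 54.2% with CpG, in B6 and SjSS. The list is not specific to interferon gamma, and the paper places its members Gbp2, Igtp, Irf1 and Iigp1 under the response to interferon beta too. Gbp5, a GTPase of the inflammasome pathway, went from 3.91 to 45.5 CPM with ACs in B6 and from 3.84 to 1281 CPM in SjSS. Cd274, which encodes PD-L1, went from 99.7 to 262 CPM and from 136 to 2136 CPM. Nos2, inducible nitric oxide synthase, went from 0.040 to 0.515 CPM and from 0.054 to 51.3 CPM. Ciita, the master activator of MHC class II genes, rose from 0.417 to 1.62 CPM in SjSS and stood at 0.397 and 0.365 CPM in B6. In the same AC treated samples Ifngr1 fell in both strains and Ifngr2 fell in B6.

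The genes whose log2 CPM followed each member most closely over the 18 samples were found by Pearson's r, as a description. The points share libraries and the 6 group means carry most of the pattern. For Ifnb1 they were Crkl (r = 0.973), Cdkn1a (r = 0.971) and Rnf135 (r = 0.968), of which Cdkn1a stood at 1534 CPM in AC treated SjSS and 241 to 369 CPM in the other groups. For Ifngr1 they were Zrsr1 (r = 0.985), Lrp12 (r = 0.973) and Mtus1 (r = 0.970). Mtus1 went from 118 to 18.8 CPM with ACs and to 14.2 CPM with CpG in B6. For Ifngr2 they were Lair1 (r = 0.968), Sla (r = 0.963) and Asb1 (r = 0.961), for Ifnar1 Rffl (r = 0.969), Smim13 (r = 0.927) and Ctbs (r = 0.917), and for Ifnar2 Pla2g16 (r = 0.932), the pseudogene Rpl17-ps8 (r = 0.928) and Rab9 (r = 0.922). The named genes changed when r was taken over the 6 group means. Crkl and Cdkn1a stayed for Ifnb1, 1 gene stayed for Ifnar1 and 1 for Ifngr1, and 0 stayed for Ifnar2 and for Ifngr2.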

How the data were processed

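RNA-seq was performed on 18 BMDM samples, 3 mice per strain per the legend of the study's RNA-seq figure. Per the labels, the authors aligned reads to mm10 with STAR and quantified genes in Partek, and the study's methods name Partek's E/M quantification. The values the authors deposited are estimated counts per gene, not normalized, of which 41.1% were not whole (tolerance 1e-06). They were rounded before testing. Fold changes and p-values of the authors were not used here. The authors' DESeq2 is listed as version 3.13 in the processing notes.

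The members and gene lists were chosen with earlier results of these data known. Genes passing edgeR's filterByExpr (15789) were scaled by TMM, and all 18 samples entered 1 quasi-likelihood model of the 6 groups (edgeR 4.0.16, R 4.3.3). Each of 9 comparisons was adjusted by Benjamini-Hochberg over all genes, with an adjusted p under 0.05 as the threshold. SE is the log2 difference divided by the square root of F, in size. CPM uses TMM scaled totals. Ifnb1 ratios are of summed counts with exact conditional binomial 95% intervals, and permutation tests (scipy 1.17.1) were exact and two-sided. Intervals and floors cover counting error only. Named genes were the members, up to 4 genes per list with the largest and smallest AC response in SjSS, the neighbors of the receptor cluster, and the 3 genes most like each member. The fit was tested on simulated data. One gene of the pathway is not reported here.

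Exon lengths came from GENCODE M21. The starts of all 5 members matched it, and the table's ends lay 1 base beyond it for 4. Promoter sequences came from RefSeq (GRCm38.p6). With 3 mice per strain given for all conditions, samples of different conditions probably share mice. Whether the sample numbers follow the mice is not stated in the sources used here. The main model and the permutation tests treat all samples as independent. Correlations of their deviations over 18 pairs were 0.0198 to 0.264, with 9 over 0.1, so the main design has no block. B6 control and CpG were the only pair of groups with all 3 pairs over 0.1. Where a block within strain changed the call of a member, the blocked value stands beside the main one. Alternatives were DESeq2 1.42.0, its size factors, other filters on low counts, fits of the compared groups alone, replicate blocks, the fold threshold, transcript length and leaving out each sample.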

Additional observations from a re-analysis of the deposited data

Results flagged for a closer look

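The AC response of Ifnar1 differed between strains by the test of the interaction, with a log2 value of 0.31 ± 0.09 (SE, n = 3 per group, edgeR adjusted p = 0.0141). Ifnar1 fell by 0.34 in B6 and changed by -0.03 in SjSS BMDMs. Leaving out 1 sample at a time gave 0.23, without SjSS control replicate 3, to 0.36.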

How the results depend on the processing

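Of the 45 member values, tested under up to 20 alternatives, 561 results kept direction and side of the threshold, 27 lost and 18 gained the call, and 24 turned in sign. Where a call changed, the cause was not tested. Asking also for a log2 change over 1.3 left 705 genes for ACs in B6, 2040 for ACs in SjSS, 2011 and 1462 for CpG, 318, 1410 and 412 for the strain difference in control, AC and CpG BMDMs, and 1189 and 97 for the interactions, and it left 1 member, Ifnb1, for ACs in each strain and for the strain difference with ACs, and 0 members elsewhere. Fitting only the compared groups left 0 members called between strains in control and in CpG BMDMs and 544 genes for the CpG interaction, and no filter on low counts left 0 members between strains with CpG. DESeq2's test and its size factors in edgeR each called 2 members between strains with CpG, and 3 and 2 for the AC interaction. Both turned the sign of uncalled values near 0, namely Ifnar2 with CpG in B6 (0.0037 and 0.0038), Ifnar2 between strains with CpG (-0.015 and -0.015) and the CpG interaction of Ifngr2 (-0.0079 and -0.0081). Per kb of the longest transcript, B6 control levels were 68.4 for Ifnar1, 50.3 for Ifnar2, 111 for Ifngr1 and 45.9 for Ifngr2. Leaving out 1 sample at a time gave 0 to 3 members called between strains in control, 0 to 2 with CpG, 1 to 2 for the AC interaction and 2 to 4 for CpG in SjSS. Genes called between strains in control numbered 1994 (without B6 control replicate 2) to 2964, and those of the CpG interaction 554 (without SjSS CpG replicate 1) to 1102. The Ifnb1 ratio of SjSS to B6 with ACs was 24.7 to 50.5 (the latter without B6 AC replicate 2). Its AC interaction ran from -0.44 (without B6 control replicate 3, the only B6 control sample with an Ifnb1 count) to 3.88, and its CpG response in SjSS from -0.44 to 0.40. Uncalled receptor values that turned in sign ran from -0.024 to 0.073 (Ifnar2, ACs in B6), -0.11 to 0.019 (Ifnar1, ACs in SjSS), -0.061 to 0.00051 (Ifnar2, CpG in B6), -0.017 to 0.061 (Ifngr1, strains in control) and -0.026 to 0.045 (Ifnar2, strains with CpG). For the CpG interaction they ran from -0.031 to 0.10 (Ifnar1), -0.00034 to 0.10 (Ifngr1) and -0.046 to 0.058 (Ifngr2). With the replicate number as a block, Ifnar1 was also called between strains with CpG (2 members, edgeR adjusted p = 0.0239). A block within strain called 1451 genes for the CpG interaction, 3 members for the AC interaction (Ifnb1 at an edgeR adjusted p of 0.0496 and Ifnar2 at 0.0456 beside Ifnar1), and Ifnar1 with CpG in B6 (0.0331). In 16 of 18 pairs a sample correlated best with its own number, a hint from the data that the numbers follow the mice, which the sources do not state. Ifnb1 counts of 0 to 16 per B6 sample limit every ratio that rests on them.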
